A study of Arabidopsis thaliana with 6 samples.

Results

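Roots given aluminium oxide nanoparticles were compared with control roots over 19648 of the 24438 loci in the expression table, those with an RPKM of at least 1 in at least 2 of the 6 libraries. RPKM is the number of reads scaled to the length of the gene model and to the library's total reads. All plants were Arabidopsis thaliana (thale cress), wild type, ecotype Columbia, at the vegetative stage, and total RNA came from roots. The control group, the nAl2O3 group (nanoparticles) and the ion Al group (dissolved aluminium) had 2 libraries each. The ion libraries entered the shared estimate of spread, and their levels are given only as a description. The remaining labels of nanoparticle replicate 2 write its compound as nAl2O4, and its title placed it in the nanoparticle group. The sources used here do not state dose, exposure time, growth medium or batch. Because the labels do not tie the libraries to separate cultures or plants, each p-value reflects spread among these libraries alone, and that spread may be technical.

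Dissolved aluminium is toxic to root tips in acid soil. Arabidopsis roots release malate through ALMT1, whose transcription requires the zinc finger protein STOP1, and the malate binds the metal outside the root. Roots also take up iron, phosphate, nitrate, sulphate and water through transporters and channels, many of them in root hairs and the outer cell layers, and the transcripts of many of these respond to nutrient supply. Aluminium oxide itself is poorly soluble in water.

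The libraries held 12318429 to 14489392 reads and 18499 to 18893 loci at an RPKM of at least 1, and 3 reads in a transcript of 1 kilobase correspond to an RPKM of 0.207 to 0.244. The 2 control libraries differed from each other by more than control replicate 1 differed from either nanoparticle library. Control replicates 1 and 2 lay at least 2-fold apart at 1779 loci on the RPKM + 1 scale, with control replicate 2 the lower at 1500 of them. Control replicate 1 lay 2-fold from nanoparticle replicate 1 at 227 loci and from nanoparticle replicate 2 at 270. Control replicate 2 lay 2-fold from the same libraries at 2132 and 2470 loci, and the nanoparticle libraries lay 2-fold from each other at 168. The 4 ribosomal RNA loci summed to 124 RPKM in control replicate 2 and to 1865 to 2437 RPKM in the other 5 libraries. The part of this difference in the comparisons below was not tested.

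**Figure D1:**
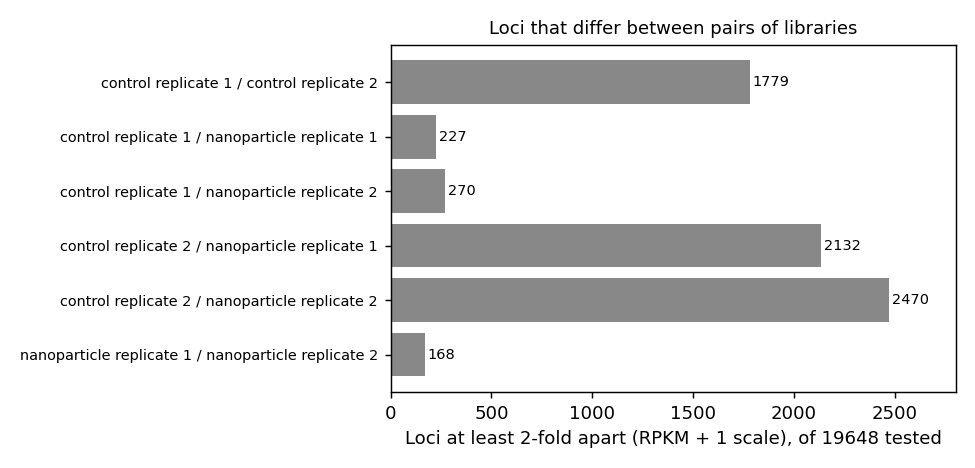
Number of tested loci (horizontal axis) at least 2-fold apart on the RPKM + 1 scale for each pair of control and nanoparticle libraries, 1 bar a pair. The 3 pairs that hold control replicate 2 reach 1779, 2132 and 2470 loci, and the other 3 pairs 168 to 270.

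No locus passed the test of nanoparticle against control roots. With limma on log2(RPKM + 1), 0 of 19648 loci (0%) had a Benjamini-Hochberg adjusted p under 0.05, the smallest being 0.595. At an unadjusted limma p under 0.05 there were 1307 loci (6.65%), 826 higher and 481 lower in nanoparticle roots. The median log2 difference was -0.03 and the median standard error 0.23. All differences below are therefore described library by library, none is a call, and every locus given with a difference has a limma adjusted p of at least 0.595.

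Both nanoparticle libraries lay above both control libraries at 4065 loci (20.7%) and below both at 4960 (25.2%), and the groups overlapped at 10623. Lists are set against these shares below as a description only, because they were chosen with earlier results of these data known. The shares, of lists and of all loci, also count loci that passed the filter only through the ion libraries. Where the lowest library of the higher group also had to exceed the highest of the other at least 2-fold, 36 loci were higher (0.183%) and 10 lower (0.0509%). Set against control replicate 1 alone, both nanoparticle libraries were at least 2-fold above at 61 loci (0.31%) and below at 33 (0.168%). Set against control replicate 2 alone, the counts were 1438 (7.32%) and 282 (1.44%). The 1438 loci had a median annotated exon length of 1085 bases against 1749 over all tested loci. Their median GC content was the same, 41.1%. Other sets were short too, with medians of 898 bases for the 61 loci, 1017 for the 36, 315 for the 33 and 184 for the 10. The 282 loci had 1640. At the 1438 loci the median log2 difference between control replicates 1 and 2 was 1.34, with control replicate 1 higher. These loci were picked for low values in control replicate 2, so that difference partly follows from the rule. Without control replicate 1, limma called 2018 loci higher (10.3%) and 1408 lower (7.17%), with the lone control assumed to vary like the other groups. Without control replicate 2 it called 0 and 0.

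The widest gap among loci with a mean of at least 5 RPKM was in AT3G60270 (chromosome 3), annotated as a protein of the cupredoxin (small copper protein) superfamily. It stood at 7.95 and 4.53 RPKM in control replicates 1 and 2 and at 28.0 and 28.3 RPKM in nanoparticle replicates 1 and 2. The groups did not overlap, and the log2 difference was 2.05 ± 0.38 (SE). In the ion libraries it was listed at 0 and 0.995 RPKM.

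Next came a neighbouring pair of phosphate transporter genes on chromosome 5. PHT1;3 (AT5G43360) stood at 7.32 and 4.34 RPKM in the control libraries, at 20.2 and 29.2 RPKM in the nanoparticle libraries, and at 0 in both ion libraries, a log2 difference of 1.93 ± 0.29. PHT1;2 (AT5G43370) had 2.21 and 0.765 RPKM in control, 7.5 and 8.69 RPKM in nanoparticle and 1.55 and 4.32 RPKM in ion roots, a log2 difference of 1.93 ± 0.42. For both genes each nanoparticle library lay above each control library. The family member PHT1;1 (AT5G43350), also on chromosome 5, stood at 114 and 36.1 RPKM in control and 137 and 152 RPKM in nanoparticle roots. On the log2 scale it was 0.34 above control replicate 1 and 1.97 above control replicate 2. Members of this family share sequence, and how reads that match several genes were handled is not stated, so the split between them is uncertain. The 250 bases before the annotated gene start are shown for PHT1;3 and PHT1;2 because these genes were high in the same libraries. The bases are from the TAIR10.1 assembly (RefSeq), plus strand, at chr5:17409274-17409523 for PHT1;3 and chr5:17415448-17415697 for PHT1;2. Capitals mark matches to GNATATNC, the motif bound by PHR1 in phosphate-responsive promoters (P1BS), which reads the same on both strands.
PHT1;3: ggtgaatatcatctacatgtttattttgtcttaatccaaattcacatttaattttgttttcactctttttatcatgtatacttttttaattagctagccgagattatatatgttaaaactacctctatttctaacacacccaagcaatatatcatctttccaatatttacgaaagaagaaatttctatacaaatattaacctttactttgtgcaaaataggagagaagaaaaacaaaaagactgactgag
PHT1;2: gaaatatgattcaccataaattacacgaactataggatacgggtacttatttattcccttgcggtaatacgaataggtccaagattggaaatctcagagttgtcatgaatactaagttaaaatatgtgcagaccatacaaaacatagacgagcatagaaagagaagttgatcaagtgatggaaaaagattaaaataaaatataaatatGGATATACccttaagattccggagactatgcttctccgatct
PHT1;2 had 1 match, starting 42 bases before the gene start, and PHT1;3 had 0. Of 27443 windows of the same length before protein-coding genes on the 5 chromosomes, 5.46% held a match.

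IRT1 (AT4G19690), the main iron transporter of the root surface, stood at 11.7 RPKM in control replicate 1, 3.40 RPKM in control replicate 2, and 28.7 and 32.2 RPKM in the nanoparticle libraries (log2 difference 2.07 ± 0.46). Both nanoparticle libraries were above both controls, by 1.31 on the log2 scale against control replicate 1 and by 2.83 against control replicate 2. AT5G26130, of the CAP family of secreted cysteine-rich proteins, had by far the highest level among these loci, with 166 and 141 RPKM in control and 390 and 423 RPKM in nanoparticle roots (log2 difference 1.40 ± 0.17). Its control libraries lay close together. It was listed at 0 in both ion libraries, which therefore added no spread to its standard error. XTH12, a xyloglucan-modifying enzyme of the cell wall, stood at 2.99 and 2.2 RPKM in control and 8.12 and 8.82 RPKM in nanoparticle roots (1.40 ± 0.22).

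The other 6 loci on the higher side were UMAMIT35, of an amino acid exporter family (log2 difference 1.78 ± 0.27), the lipid-transfer protein gene AT4G12360 (1.98 ± 0.33), AT5G65980 of the auxin efflux carrier family (1.44 ± 0.23), the non-coding AT3G52748 (1.63 ± 0.40), the C1 domain gene AT2G37780 (1.32 ± 0.21) and the receptor-kinase-related AT1G63570 (1.78 ± 0.30). Of the 12, all but PHT1;2 and AT3G52748 were at or below 1 RPKM in both ion libraries.

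On the lower side the widest gap was in AT3G18250, annotated as a putative membrane lipoprotein. It stood at 40.5 and 31.0 RPKM in control replicates 1 and 2, at 11.1 and 8.29 RPKM in the nanoparticle libraries and at 186 and 103 RPKM in the ion libraries (log2 difference -1.78 ± 0.31). PROPEP4, the precursor of a defence-eliciting peptide, had 13.1 and 8.64 RPKM in control, 4.02 and 4.98 RPKM in nanoparticle and 136 and 174 RPKM in ion roots (-1.09 ± 0.25). In both genes the nanoparticle libraries were the lowest of the 6 and the ion libraries the highest. PCK2, a phosphoenolpyruvate carboxykinase, an enzyme of gluconeogenesis, had nearly equal controls, at 166 and 162 RPKM, and 96.8 and 99.5 RPKM in nanoparticle roots (-0.74 ± 0.30). The remaining 9 ran from -0.83 ± 0.18 in GCL1 to -2.26 ± 0.68 in the small nucleolar RNA AT2G35742, which rested on 12 and 11 control reads and 0 and 5 nanoparticle reads. They were AT1G20065, AT2G41082, AT5G02580, AT3G12965, AT1G15330, the spliceosome protein gene SAD1 and AT1G69485 besides these. Of all 10 loci that were lower 2-fold without overlap, 6 were not protein-coding, and 3 had a mean of at least 5 RPKM in control roots, the higher group there. Of the 36 higher loci 6 were not protein-coding, and 21 had a mean of at least 5 RPKM in nanoparticle roots, the higher group there.

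**Figure D2:**
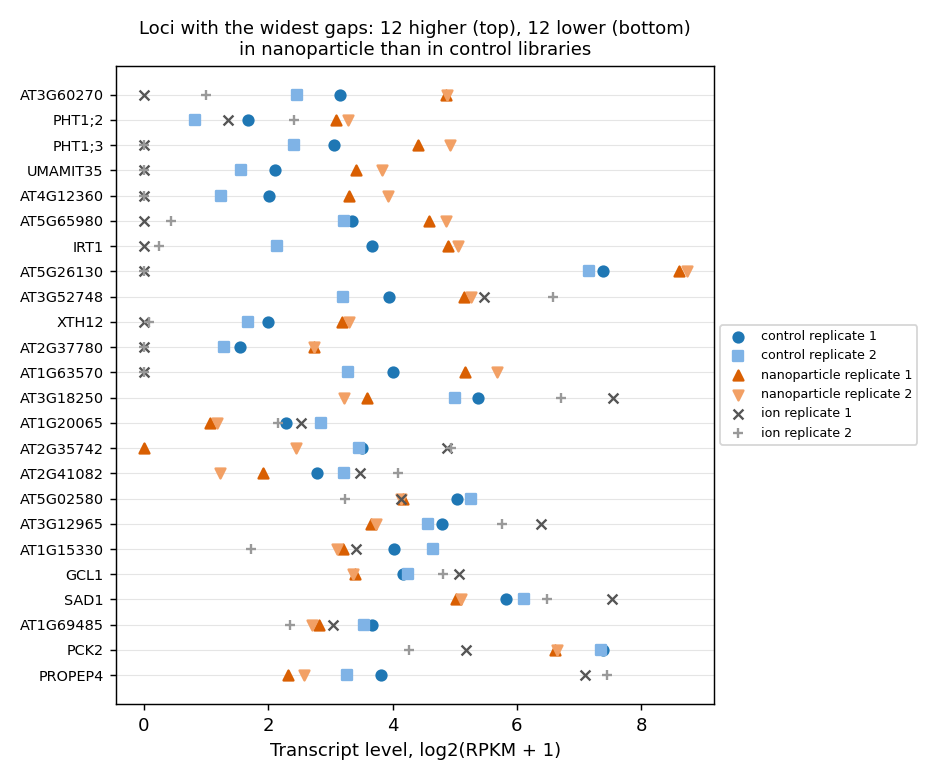
Level of the 12 higher and 12 lower loci with the widest gaps, as log2(RPKM + 1) on the horizontal axis, 1 symbol a library. By the rule that picked the loci, both nanoparticle symbols (triangles) lie on one side of both control symbols (circle and square). An example is AT5G26130, with 166 and 141 RPKM in control and 390 and 423 RPKM in nanoparticle roots.

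Aluminium tolerance genes lay on either side of the controls in equal number. ALMT1, the malate channel, had 0.926 and 1.12 RPKM in control and 1.34 and 0.906 RPKM in nanoparticle roots, against 246 and 231 RPKM in ion roots. The control and nanoparticle ranges overlapped, and the log2 difference was 0.06 ± 0.20. The citrate transporter MATE likewise overlapped, at 2.18 and 1.56 RPKM in control and 2.05 and 2.2 RPKM in nanoparticle roots (0.13 ± 0.35). STOP1 had 120 and 180 RPKM in control and 116 and 119 RPKM in nanoparticle roots (-0.32 ± 0.23), just below control replicate 1. ALS3, a transporter-like protein needed for aluminium tolerance, overlapped at 12.1 and 8.30 against 13.8 and 11.3 RPKM (0.29 ± 0.23). Of 18 tested members, 5 (27.8%) lay above both controls and 5 (27.8%) below, near the 20.7% and 25.2% of all loci. Their median log2 difference was 0.06. XTH17, a wall enzyme, had the widest gap above both controls, at 8.22 and 4.81 RPKM in control and 19.8 and 17.9 RPKM in nanoparticle roots (1.44 ± 0.26). GDH2, a glutamate dehydrogenase, had the widest gap below them, at 506 and 559 against 303 and 389 RPKM (-0.63 ± 0.24).

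Iron uptake genes were mostly above both controls. Of 32 tested members of the iron list, 22 (68.8%) lay above both control libraries and 3 (9.38%) below, against 20.7% and 25.2% of all loci. The list's median log2 difference was 0.55, or 0.33 against control replicate 1 and 0.72 against control replicate 2, where all loci had -0.03 and -0.04. By limma 0 members were called, and 8 were called higher and 1 lower without control replicate 1. At least 2-fold above control replicate 1 were 4 members, and 12 were so above control replicate 2.

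Iron is reduced at the root surface before import. The ferric reductase FRO2 stood at 7.76 and 3.09 RPKM in control replicates 1 and 2 and at 15.2 and 19.0 RPKM in nanoparticle roots (1.59 ± 0.36), and like IRT1 it did not overlap. FIT, the transcription factor that activates both, had 19.4 and 8.32 RPKM in control and 32.5 and 32.3 RPKM in nanoparticle roots (1.28 ± 0.36). Its partner BHLH100, the member with the widest gap, had 0.266 and 0.563 RPKM in control and 3.54 and 3.56 RPKM in nanoparticle roots (1.69 ± 0.84), from 3 and 6 reads against 38 and 39. The related BHLH38 showed 1.06 and 0.561 against 4.05 and 4.28 RPKM (1.53 ± 1.19). Both standard errors include the spread of the ion libraries, which lay far apart. These stood at 0 and 7.03 RPKM for BHLH100 and at 0.089 and 20.7 RPKM for BHLH38. S8H, CYP82C4 and F6'H1, enzymes that make secreted iron-mobilizing coumarins, also lay above both controls. S8H stood at 9.83 and 2.79 against 19.2 and 17.2 RPKM. CYP82C4 stood at 1.36 and 0.361 against 3.5 and 3.47 RPKM, and F6'H1 at 39.2 and 16.0 against 51.8 and 53.6 RPKM. On the lower side FER1, the iron-storage protein ferritin, had 49.1 and 109 RPKM in control and 31.6 and 36.8 RPKM in nanoparticle roots (-1.08 ± 0.48). The ubiquitin ligase BTS, which restrains the iron response, stood at 16.3 and 20.5 against 14.8 and 13.7 RPKM (-0.34 ± 0.20). The beta-glucosidase BGLU42 also lay below both controls, at 11.2 and 14.4 against 8.77 and 8.51 RPKM (-0.51 ± 0.20). FRO2, FIT, BHLH38, S8H, CYP82C4, F6'H1, BTS and BGLU42 were picked after their values were seen. The vacuolar transporter IREG2 stood at 28.6 RPKM in control replicate 1, 12.7 RPKM in control replicate 2 and 30 and 34.6 RPKM in nanoparticle roots (0.72 ± 0.35), close to control replicate 1 alone.

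**Figure D3:**
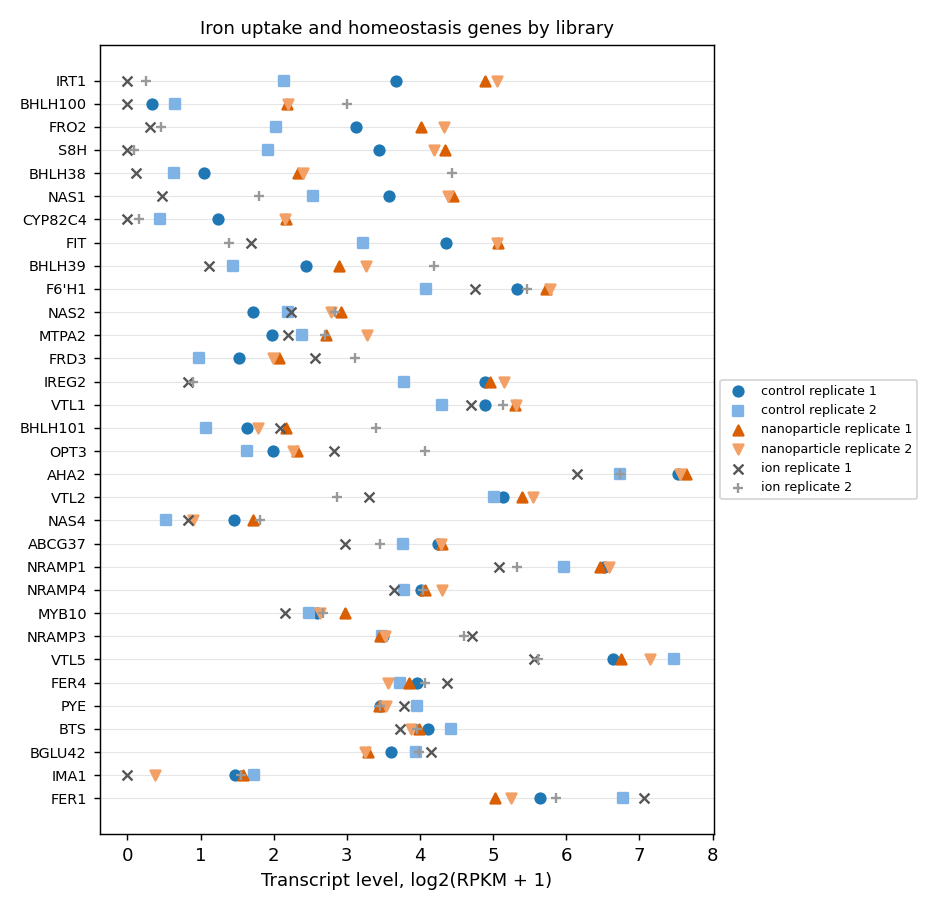
Level of the 32 tested iron genes as log2(RPKM + 1) on the horizontal axis, 1 symbol a library, ordered by the log2 difference. Both nanoparticle symbols lie to the right of both control symbols in 22 rows and to the left in 3.

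The phosphate starvation list, which holds PHT1;2 and PHT1;3, had members on either side of the controls. IPS1, a non-coding RNA of phosphate-starved roots, had 0.637 and 0.809 RPKM in control and 0.669 and 0.916 RPKM in nanoparticle roots, against 634 and 504 RPKM in ion roots (0.06 ± 0.20). Of 33 members 9 (27.3%) lay above both controls and 5 (15.2%) below, against 20.7% and 25.2% of all loci. The other 19 overlapped, and the median was 0.07. IPS1, SPX3, PHT1;5, PHT1;8, PEPC1, MGD3, PLDP2 and RNS1 were under 1 RPKM in every control and nanoparticle library. These members passed the filter through the ion libraries alone. PHO2, a regulator of phosphate transport with the widest gap below both controls, stood at 145 and 149 RPKM in control and 124 and 120 RPKM in nanoparticle roots (-0.27 ± 0.25).

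Nitrogen genes were also often above both controls. NRT2.1, the high-affinity nitrate transporter, stood at 55.6 RPKM in control replicate 1, 15.5 RPKM in control replicate 2 and 111 and 105 RPKM in nanoparticle roots (1.83 ± 0.57). The groups did not overlap, but the difference was 0.94 against control replicate 1 and 2.72 against control replicate 2. In the list 14 of 26 members (53.8%) lay above both controls and 3 (11.5%) below, against 20.7% and 25.2% of all loci. The median was 0.28 (0.16 and 0.35 against control replicates 1 and 2). At least 2-fold above control replicate 1 were 0 members, and 9 were so above control replicate 2. The asparagine synthetase ASN1 was lower, at 128 and 99.0 RPKM in control and 57.9 and 69.1 RPKM in nanoparticle roots (-0.82 ± 0.24).

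Sulphate and metal genes gave no such pattern. SULTR1;1, a high-affinity sulphate transporter, had 14.9 and 9.80 RPKM in control and 17.1 and 20.7 RPKM in nanoparticle roots (0.59 ± 0.25), just above both controls. In the sulphate list 4 of 20 members (20%) were above both controls and 3 (15%) below, at a median of -0.02. All loci had 20.7% and 25.2%. LSU1 and BGLU28 were at 0, and GGCT2;1 under 1 RPKM, in every control and nanoparticle library. These members passed the filter through the ion libraries alone. The widest gap on the higher side was in LSU2 (1.74 and 0.131 against 2.74 and 2.93 RPKM). On the lower side it was in the vacuolar exporter SULTR4;2 (6.62 and 7.31 against 4.94 and 4.61 RPKM). In the zinc and copper list 5 of 19 (26.3%) were above both controls and 2 (10.5%) below, at a median of 0.12. The metallothionein MT1C had 152 and 91.4 RPKM in control and 285 and 363 RPKM in nanoparticle roots (1.44 ± 0.52), while the zinc pump HMA4 had 103 and 160 against 81.9 and 86.3 RPKM (-0.61 ± 0.24).

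Aquaporins, the membrane channels for water and small solutes, were higher in nanoparticle roots mainly against control replicate 2. PIP2;4, a plasma membrane water channel, stood at 279 RPKM in control replicate 1, at 63.2 RPKM in control replicate 2 and at 297 and 329 RPKM in nanoparticle roots (1.22 ± 0.61). Control replicate 1 lay close to the nanoparticle libraries, 0.16 away on the log2 scale, and control replicate 2 lay 2.29 away. Of 25 members 18 (72%) lay above both controls and 0 (0%) below, against 20.7% and 25.2% of all loci. The median was 0.82, made up of 0.28 against control replicate 1 and 1.36 against control replicate 2. No member reached 2-fold above control replicate 1 and 15 did so above control replicate 2. NIP1;2 had the widest gap, at 11.0 and 8.90 RPKM in control and 15.3 and 16.9 RPKM in nanoparticle roots (0.65 ± 0.23). PIP2;2 and PIP2;3 are nearly identical, so their split is uncertain.

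**Figure D4:**
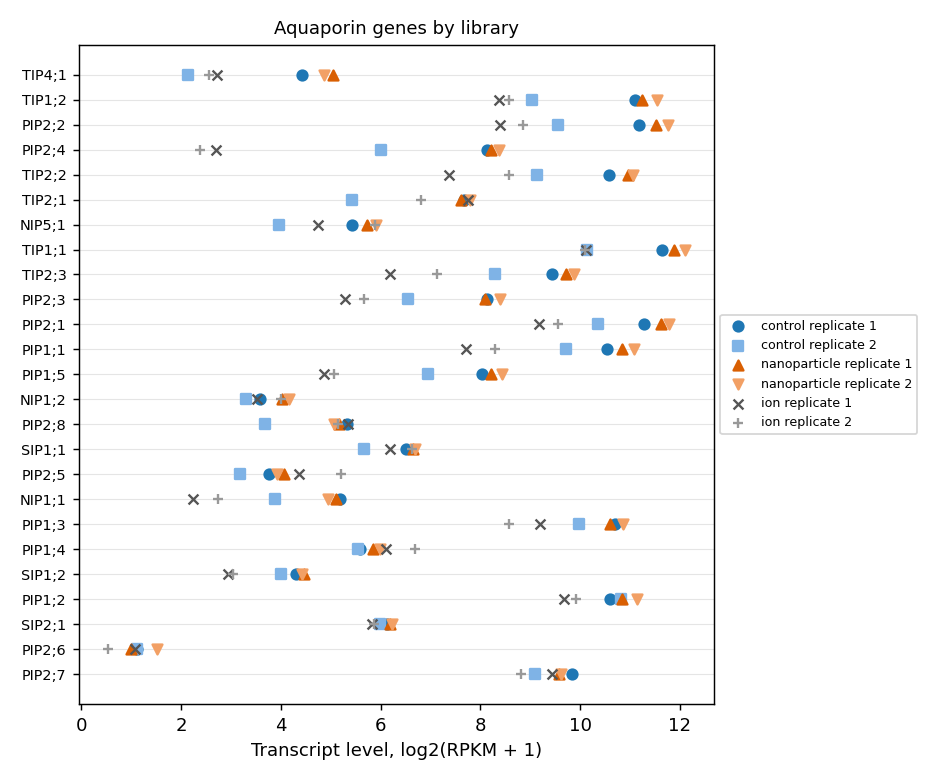
Level of the 25 aquaporin genes as log2(RPKM + 1) on the horizontal axis, 1 symbol a library, ordered by the log2 difference. Control replicate 2 (light square) lies to the left of the other control and the nanoparticle libraries in most rows, as in PIP2;4 with 63.2 RPKM against 279 to 329 RPKM.

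Root hair genes, which build or regulate the tubular outgrowths of the root epidermis, had 15 of 23 members (65.2%) above both controls. Below both lay 1 (4.35%), and all loci had 20.7% above and 25.2% below. The median was 0.56, and 0.42 against control replicate 1 and 0.64 against control replicate 2. XTH12 had the widest gap, as given above. RHD6, a regulator of hair initiation, stood at 6.71 and 6.63 RPKM in control and 6.42 and 4.41 RPKM in nanoparticle roots (-0.28 ± 0.24). The 24 listed genes, the regulators GL2 and CPC among them, summed to 306 and 187 RPKM in control replicates 1 and 2. The sums were 435 and 471 RPKM in nanoparticle roots and 112 and 80.2 RPKM in ion roots. This order, control replicate 2 lowest and the nanoparticle libraries highest, is also that of IRT1, FRO2 and PIP2;4 among these 4 libraries, and the part of root hair cells in those differences was not tested. In bulk roots, fewer cells of a type and less RNA per cell cannot be told apart. Genes of wall loosening (expansins and xyloglucan enzymes) had 12 of 29 members (41.4%) above both controls and 1 below, with a median of 0.36, and 0.13 against control replicate 1 and 0.76 against control replicate 2.

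Suberin and Casparian strip genes, of the root's apoplastic barriers, had 11 of 20 members (55%) above both controls and 0 below. Their median was 0.23, and of all loci 20.7% lay above and 25.2% below. The 22 markers summed to 631 and 429 RPKM in control and 793 and 839 RPKM in nanoparticle roots. FAR4, a suberin fatty acid reductase, stood at 6.88 and 9.02 RPKM in control and 13.5 and 13.0 RPKM in nanoparticle roots (0.68 ± 0.24). CASP5, a Casparian strip protein, stood at 3.71 and 11.4 against 3.47 and 3.99 RPKM (-0.69 ± 0.44), where control replicate 2 alone was high. Of 17 xylem genes 3 lay above and 6 below, at a median of -0.10. The xylem protease XCP1 had 88.8 and 82.3 RPKM in control and 68.2 and 68.9 RPKM in nanoparticle roots (-0.32 ± 0.17). Of 7 phloem genes 3 (42.9%) lay below and 0 above, at a median of -0.23. The gap was widest in the regulator APL, at 19.2 and 20.1 against 14.6 and 14.3 RPKM (-0.42 ± 0.17).

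Cell division genes were more often below both controls than above, as were all loci (25.2% against 20.7%). KNOLLE, the syntaxin of cell plate formation, stood at 45.2 and 60.7 RPKM in control and 31.3 and 27.5 RPKM in nanoparticle roots (-0.82 ± 0.25), below both controls. In the cell cycle list 9 of 23 members (39.1%) lay below both controls and 0 (0%) above, at a median of -0.30, with -0.17 against control replicate 1 and -0.41 against control replicate 2. Of the 10 root tip and patterning genes 7 (70%) lay below and 0 above, at a median of -0.32. The gap was widest in SCZ, a regulator of root stem cell divisions, at 29.5 and 55.7 against 24.2 and 17.3 RPKM (-0.95 ± 0.32). The 11 root tip markers summed to 140 and 184 RPKM in control and 120 and 117 RPKM in nanoparticle roots, and the share of tip tissue was not tested.

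Low oxygen genes had 6 of 12 members (50%) above both controls and 1 (8.33%) below, where all loci had 20.7% and 25.2%. Their median was close against either control library (0.57 and 0.46). PDC1, which makes acetaldehyde in fermentation, stood at 1.51 and 3.40 RPKM in control and 7.45 and 8.55 RPKM in nanoparticle roots (1.44 ± 0.43). LBD41, a marker of low oxygen picked after its values were seen, stood at 36.7 and 31.3 against 60.7 and 71.0 RPKM (0.93 ± 0.34). Both separated the groups without overlap. Ethylene genes had 7 of 10 above both controls and 0 below, with a median of 0.20, and the gap was widest in the ethylene-forming oxidase ACO1, at 35.2 and 38.1 against 50.3 and 49.9 RPKM (0.44 ± 0.30).

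Lignin and phenylpropanoid genes had 6 of 12 above both controls and 1 below, at a median of 0.48, and at 0.03 and 0.91 against control replicates 1 and 2, the wider difference being that against control replicate 2. F5H1, an enzyme of lignin monomer synthesis, stood at 31.7 and 12.9 against 42.4 and 42.3 RPKM (1.03 ± 0.37). The jasmonate list had 2 of 14 (14.3%) above and 6 (42.9%) below at a median of -0.09. All loci had 20.7% above and 25.2% below. Its storage protein gene VSP1 stood at 12.4 and 12.2 against 14.9 and 14.7 RPKM (0.25 ± 0.20). The repressor JAZ9 had a log2 difference of -0.44 ± 0.17.

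The remaining stress and hormone lists stayed near the median of all loci, -0.03. Of all loci, 20.7% lay above both controls and 25.2% below. Oxidative stress genes, among them glutathione transferases, had 6 of 25 above both controls and 2 below at a median of 0.08. APX1, a peroxidase that removes hydrogen peroxide, stood at 249 and 133 RPKM in control and 309 and 308 RPKM in nanoparticle roots (0.76 ± 0.36), with control replicate 2 the lowest. Salicylate genes had 2 of 17 above and 3 below at 0.03. EDS5, which exports a salicylate precursor from plastids, stood at 4.79 and 3.42 against 8.39 and 7.75 RPKM (0.84 ± 0.25) without overlap. The abscisic acid list had 2 of 11 above and 1 below at 0.10. Its dehydrin ERD10, a protein of drying and cold, stood at 57.4 and 65.3 against 83.8 and 93.7 RPKM (0.53 ± 0.19), and RD29A, of the same responses, at 2.71 and 3.33 against 1.1 and 1.96 RPKM (-0.68 ± 0.33). Auxin genes had 4 of 24 above and 5 below at -0.03. PUCHI, a regulator of lateral root formation, stood at 1.03 and 0.364 against 1.6 and 1.97 RPKM (0.74 ± 0.26), and the auxin response repressor IAA3 at 38.4 and 40.3 against 26.6 and 28.7 RPKM (-0.49 ± 0.19). Heat shock genes had 1 of 9 above and 2 below at -0.03, with the drought and heat regulator DREB2A at 3.67 and 6.08 against 2.92 and 2.76 RPKM (-0.58 ± 0.27).

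Photosynthesis genes, markers of green tissue, divided the nanoparticle libraries from each other. The 24 markers summed to 364 and 362 RPKM in control, to 193 RPKM in nanoparticle replicate 1 and to 484 RPKM in nanoparticle replicate 2. The groups overlapped in all 24 members, whose median log2 difference was -0.28. The antenna gene LHCA1 stood at 19.4 and 22.8 RPKM in control and 8.52 and 20.3 RPKM in nanoparticle roots (-0.63 ± 0.41). RBCS3B, a small subunit of Rubisco picked after its values were seen, was listed at 0 in nanoparticle replicate 1 and stood at 18.6 RPKM in nanoparticle replicate 2, against 15.3 and 16.7 RPKM in control. RBCS and CAB family members are nearly identical, so their split is uncertain.

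**Figure D5:**
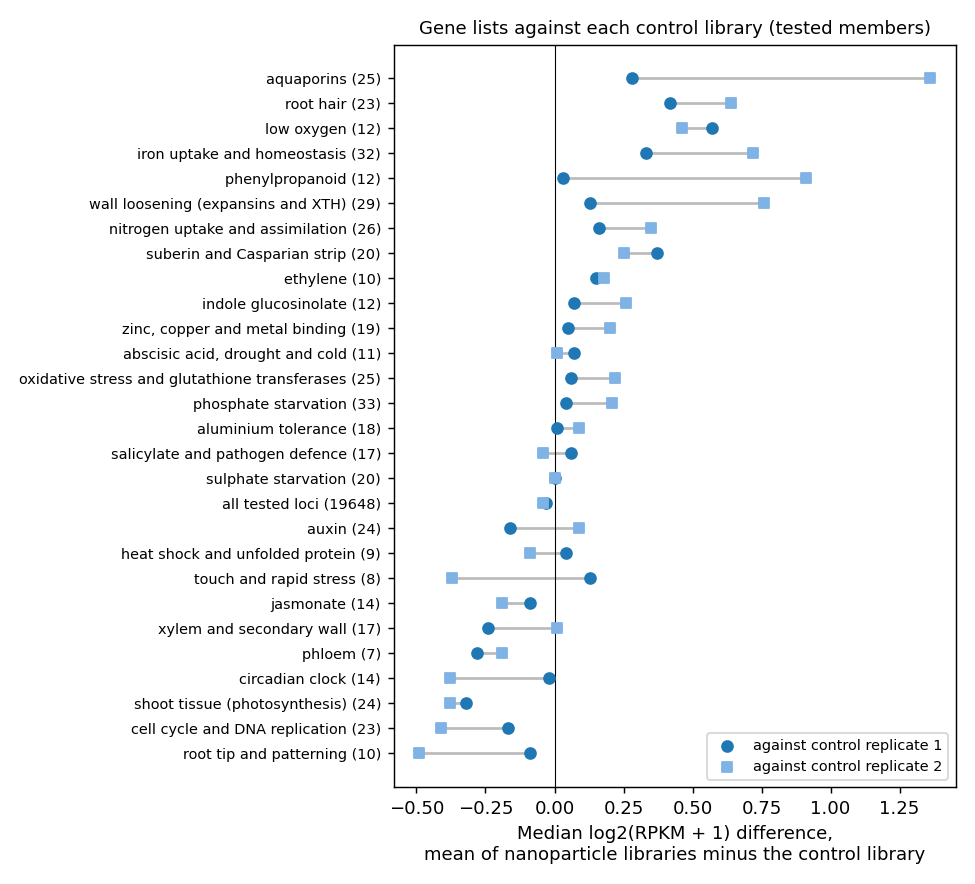
Median log2(RPKM + 1) difference (horizontal axis) of the mean of the nanoparticle libraries from control replicate 1 (circle) and from control replicate 2 (square), for 27 gene lists and all tested loci, with the number of tested members in brackets. For aquaporins the medians are 0.28 and 1.36, for low oxygen genes 0.57 and 0.46, and for all loci -0.03 and -0.04.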

How the data were processed

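RNA sequencing of 6 root libraries gave RPKM values, which the authors deposited as 1 table of 24438 loci, with the unit given in the table's name. TopHat2 2.0.12 and HTSeq 0.6.0 are listed in the submitters' processing notes, beside the build TAIR10, with no roles. How strand and multiply matching reads were handled is not stated in the sources used here. Levels of near-identical, overlapping and antisense genes are therefore uncertain. 0 columns were left unmapped. Library totals were recovered from the steps of the RPKM values and annotated lengths. The TAIR10.1 annotation matched 23678 loci (96.9%).

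Differences were tested with limma 3.58.1 (R 4.3.3) on log2(RPKM + 1), a pseudocount of 1, which understates changes of low genes. It covered 19648 loci (80.4%), with the 3 groups in 1 fit (3 residual degrees of freedom), a mean-variance trend, two-sided contrasts and Benjamini-Hochberg adjustment over all loci, called at adjusted p under 0.05. It was also run on simulated data, with noise set by the spread of the nanoparticle and ion libraries. The wider spread of the control libraries was left out, so that run cannot show how the test behaves here. Differences are ± the moderated standard error, which pools the spread of the 3 groups. Where both ion libraries were at 0, they added no spread, and the standard error can understate that of the compared libraries. Values at each library are RPKM, and comparisons with single control libraries carry no test. Named loci were called loci, filled up to 12 in each direction by the widest gap among loci with a mean of at least 5 RPKM, the member with the widest gap in each list and direction, and 10 genes of aluminium, nutrient and water uptake. The lists, 534 loci in all, and the rules were chosen with earlier results of these data known. RAE1 and HSP17.6 were dropped because their symbols belong to other loci in the annotation. Alternatives covered the pseudocount, the filter, scaling, weights, the trend, the groups in the fit, the replicate block and leaving out each library.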

Additional observations from a re-analysis of the deposited data

How the results depend on the processing

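With limma, 0 loci were called higher and 0 lower with a pseudocount of 0.1, no filter or a filter at RPKM 5, only the 2 groups in the fit, no trend, library weights, 3 other scalings and without any library but control replicate 1. Leaving out 1 library gave 0 to 2018 higher and 0 to 1408 lower, the highest without control replicate 1. Of 83 named loci, 34 were called there and 0 under the other alternatives. With the replicate block 0 loci were called higher and 0 lower. Same-numbered libraries deviated together little. The correlation was -0.054 between control and nanoparticle, -0.164 between control and ion and 0.075 between nanoparticle and ion. The wide gap between the control libraries can hide a shared term, and whether same-numbered libraries shared a batch was not tested.

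Loci separated 2-fold without overlap numbered 36 higher and 10 lower. They were 127 and 26 with a pseudocount of 0.1 and 22 and 2 with the filter at RPKM 5, and 59 to 1438 and 31 to 282 with 1 library left out, when fewer libraries had to agree in order. For 9 named loci the sign turned. With median-of-ratios scaling NAC045 was at 0.00, SCR at 0.06 and PCNA1 at 0.04. With quantile normalization SCR was at 0.01 and IPS1 at -0.03, and with TPM EBF2 was at -0.01. Over the fits with a library left out, NAC045 ran from -0.14 to 0.06, SCR from -0.08 to 0.08, ALMT1 from -0.08 to 0.21, IPS1 from -0.04 to 0.16, CASP5 from -1.39 to 0.00, MATE from -0.02 to 0.29, PSAF from -0.21 to 0.63 and PCNA1 from -0.11 to 0.05. The cause was not tested. Intervals between libraries rest on 2 a group, and 3 reads set the limit for low loci.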

Other observations

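Precursors of small regulatory RNAs were among the loci with the widest relative gaps at very low level. MIR165a and MIR166a, precursors of microRNAs that act on leaf and root patterning, had 0 reads in both control libraries and 3 and 6, and 4 and 7, reads in nanoparticle replicates 1 and 2. MIR172c and MIR172e, of a family that acts on flowering time, had 2 and 2, and 5 and 4, reads in control and 0 in both nanoparticle libraries. Ion reads were 1 and 1 for MIR165a, 4 and 3 for MIR166a, 0 and 0 for MIR172c, and 3 and 8 for MIR172e. The other precursors separated 2-fold were MIR173, MIR169b and MIR851. MIR173 had 0 and 0 control reads against 2 and 2 nanoparticle reads, MIR169b 1 and 1 against 6 and 5, and MIR851 3 and 3 against 0 and 0. With so few reads these differences lie near the limit of detection, and they were picked after their values were seen.

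Neighbouring members of a family stood together among the 36 higher loci, 8 of which lay within 5 loci of another. The extensin-like wall protein gene AT4G08380 had 23.6 and 4.95 RPKM in control and 52.6 and 51.0 RPKM in nanoparticle roots, and AT4G08400 had 3 and 0.805 against 7.85 and 8.56 RPKM. AT4G21250, of a sulphite exporter family, had 8.79 and 3.88 against 20.9 and 27.8 RPKM. How reads shared by such neighbours were split is not stated.

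In the circadian clock list 1 of 14 members (7.14%) lay above both controls and 4 (28.6%) below, against 20.7% and 25.2% of all loci. The median was -0.25. The evening gene ELF4 stood at 0.223 and 0.708 RPKM in control and 2.22 and 1.95 RPKM in nanoparticle roots (1.09 ± 0.27), and the regulator RVE1 at 28.2 and 36.5 against 20.0 and 21.3 RPKM (-0.61 ± 0.19). The sources used here give no harvest times. In the indole glucosinolate list 5 of 12 lay above and 2 below at a median of 0.17, with the activator MYB34 at 31.4 and 17.8 against 40.4 and 37.7 RPKM (0.70 ± 0.30). In the touch list 3 of 8 lay above and 1 below at a median of -0.06, the one below being the calmodulin-like TCH3, at 118 and 167 against 90.3 and 88.7 RPKM (-0.64 ± 0.22).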
